A study of Mus musculus with 2 samples.

Results

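The genes described here encode the proteasome, the barrel-shaped protease that degrades ubiquitin-tagged proteins. Membership followed a rule on names, chosen with earlier results of these data known. The rule took every gene of the deposited table whose symbol has the form Psma, Psmb, Psmc, Psmd, Psme, Psmf or Psmg followed by a number. It gave 48 of 23988 genes. Values are RPKM, reads scaled to gene length and library size, of 2 RNA-seq libraries of untransformed mouse myeloid progenitors, here replicate 1 and replicate 2. The cells came from C57BL/6 bone marrow from which lineage-positive cells had been removed, and were cultured for 7 days in interleukin 3, stem cell factor and interleukin 6 with no further treatment. Both libraries belong to this 1 group, so no comparison between conditions was possible, and the HOXA9 and MEIS1 leukaemia cells of the series title were not analysed here. The culture is a mixture at the end of 7 days rather than a sorted population. Whether the libraries derive from different mice or cultures is not stated, so their spread may be technical. With 2 libraries the smallest p of an exact sign-flip permutation test is 0.5, so none was run, and a difference within libraries was called only when it had 1 sign in both and a mean beyond 2 SD.

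Spacing of low RPKM values gave effective depths of 29941063 reads for replicate 1 and 28793666 for replicate 2, so that 1 read per kb equalled 0.0334 and 0.0347 RPKM. All 9 markers of the labelled cell type, led by the granule protein genes Mpo, Elane and Prtn3, stood at 1 RPKM or more in both libraries. None of the 4 B cell, 5 T cell and 5 erythroid marker genes reached 1 RPKM in both. Among them Ms4a1, Pax5, Cd3e, Cd4, Hbb-b1 and Hba-a1 were listed at 0 in both libraries. The erythroid genes Klf1, at 0.748 and 1.47 RPKM, and Epor, at 0.931 and 1.56, passed 1 RPKM in replicate 2 alone.

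The proteasome core, the 20S particle, is a stack of rings made of alpha and beta subunits. Of the beta subunits, Psmb5, Psmb6 and Psmb7 carry the proteolytic sites. The 19S particle caps the core, recognises ubiquitin, unfolds substrates with a ring of ATPases and feeds them in. In immune cells and under interferon, Psmb8, Psmb9 and Psmb10 take the places of Psmb5, Psmb6 and Psmb7 in newly made cores, and this immunoproteasome cuts peptides suited to MHC class I presentation. Psme1 and Psme2 form the 11S activator that interferon also induces. Blood cells of myeloid lineages are known to carry both forms of the core.

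Promoter sequences are shown for the subunits on which the results below turn, from RefSeq (GRCm38.p6), 5′ to 3′ on the strand of the gene. Of the 48 genes, 40 were matched to a window reaching from 250 bases before to 50 bases after the annotated start. Psmb9 and Tap1, a subunit of the peptide transporter of class I presentation, are transcribed away from each other from starts 225 bases apart, and the sequence between the starts is shown as the promoter that both share (chr17:34187331-34187555, minus strand). Psmb8 (chr17:34197945-34198194, plus strand) is the next gene after Tap1. Psmb5 (chr14:54617996-54618245, minus strand) and Psmb6 (chr11:70525107-70525356, plus strand) are constitutive partners, Psmb10 (chr8:105938393-105938642, minus strand) is the catalytic immunoproteasome gene outside the MHC locus, Psmd12 (chr11:107479278-107479527, plus strand) stands for the 19S genes, and Psme1 (chr14:55578394-55578518, plus strand) for the 11S activator, from 100 bases before to 25 bases after its start. Capitals mark the CCAAT box in Psmb9, the gamma-activated sequence TTCNNNGAA in Psmb8, the core of the antioxidant response element TGACNNNGC in Psmb5 and Psmb6, the ETS core CCGGAAG in Psmd12 and the core of the interferon-stimulated response element, GAAA and GAAA with any 2 bases between, in Psme1, each found on either strand. Psmb10 has no capitals because none of the 5 motifs was found there.
Psmb9: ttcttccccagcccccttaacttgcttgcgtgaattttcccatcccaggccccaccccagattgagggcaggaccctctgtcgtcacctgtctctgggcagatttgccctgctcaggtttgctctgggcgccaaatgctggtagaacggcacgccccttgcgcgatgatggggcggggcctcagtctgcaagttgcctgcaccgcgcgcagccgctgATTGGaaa
Psmb8: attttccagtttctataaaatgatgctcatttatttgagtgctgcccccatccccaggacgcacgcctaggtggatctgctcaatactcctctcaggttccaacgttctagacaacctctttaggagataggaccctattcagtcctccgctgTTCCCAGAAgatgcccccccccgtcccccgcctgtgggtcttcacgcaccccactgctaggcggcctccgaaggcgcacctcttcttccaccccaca
Psmb10: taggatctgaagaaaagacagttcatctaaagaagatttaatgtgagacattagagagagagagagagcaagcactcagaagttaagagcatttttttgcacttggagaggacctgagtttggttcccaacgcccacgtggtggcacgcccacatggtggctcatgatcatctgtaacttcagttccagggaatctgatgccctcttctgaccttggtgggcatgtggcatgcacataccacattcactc
Psmb5: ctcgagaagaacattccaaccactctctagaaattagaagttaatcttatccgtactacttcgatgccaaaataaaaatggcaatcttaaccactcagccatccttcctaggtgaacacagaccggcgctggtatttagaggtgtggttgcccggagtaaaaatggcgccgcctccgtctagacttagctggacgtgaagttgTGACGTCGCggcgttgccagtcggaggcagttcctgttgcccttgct
Psmb6: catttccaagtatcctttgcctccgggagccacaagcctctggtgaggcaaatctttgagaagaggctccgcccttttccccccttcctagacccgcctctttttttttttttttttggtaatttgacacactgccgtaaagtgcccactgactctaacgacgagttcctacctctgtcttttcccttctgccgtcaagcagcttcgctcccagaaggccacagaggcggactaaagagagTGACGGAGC
Psmd12: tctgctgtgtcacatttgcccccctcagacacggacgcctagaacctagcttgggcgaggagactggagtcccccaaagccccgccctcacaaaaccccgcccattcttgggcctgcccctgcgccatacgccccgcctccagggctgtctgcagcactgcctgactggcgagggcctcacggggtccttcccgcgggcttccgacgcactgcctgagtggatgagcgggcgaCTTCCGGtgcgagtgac
Psme1: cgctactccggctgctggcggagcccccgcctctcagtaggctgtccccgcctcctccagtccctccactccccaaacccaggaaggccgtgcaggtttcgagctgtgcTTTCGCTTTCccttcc

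These 5 motifs were searched on both strands in all windows of the same length. The ETS core was found in 34.9% of the 43 windows of proteasome genes and in 8.86% of all 32851 windows. It lay in 14 of the 40 matched genes: 10 of the 25 standard subunits, both Psme3 and Psme4, and the chaperone genes Psmg1 and Psmg3. None of the 5 immunoproteasome genes had it. At a share of 8.86% of all windows, 5 genes are too few to tell this from the background. CCAAT stood in 32.6% against 37.4%, and the antioxidant core in 14% against 12.4%. The interferon-stimulated core was found in 11.6% against 3.44%, in Psme1, Psmb3, Psmd4, Psmd9 and Psmg4, and the gamma-activated sequence in 6.98% against 8.30%, in Psmb8, Psmd2 and Psmg1. Such matches are short strings and show no binding, and a window without one says nothing of the factor.

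All 48 genes reached the detection level of 1 RPKM in both libraries, whereas 43.5% of all genes did. The 31 standard subunits (Psma1 to Psma7, Psmb1 to Psmb7, 6 ATPases and 11 further 19S subunits) had median levels of 138 RPKM in replicate 1 and 101 RPKM in replicate 2. The median subunit ranked above about 97.1% of all genes in replicate 1 and 96% in replicate 2. Together the 48 genes held 0.84% and 0.637% of the summed RPKM. Levels of the 31 subunits spread over 13.6-fold and 14-fold within the libraries, from Psmd11 to Psmb4. Across these genes the libraries followed each other closely (Pearson's r of log2(RPKM + 1) 0.976 and Spearman's rho 0.95 over 31 genes, which share 2 libraries and are no replicates).

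**Figure D1:**
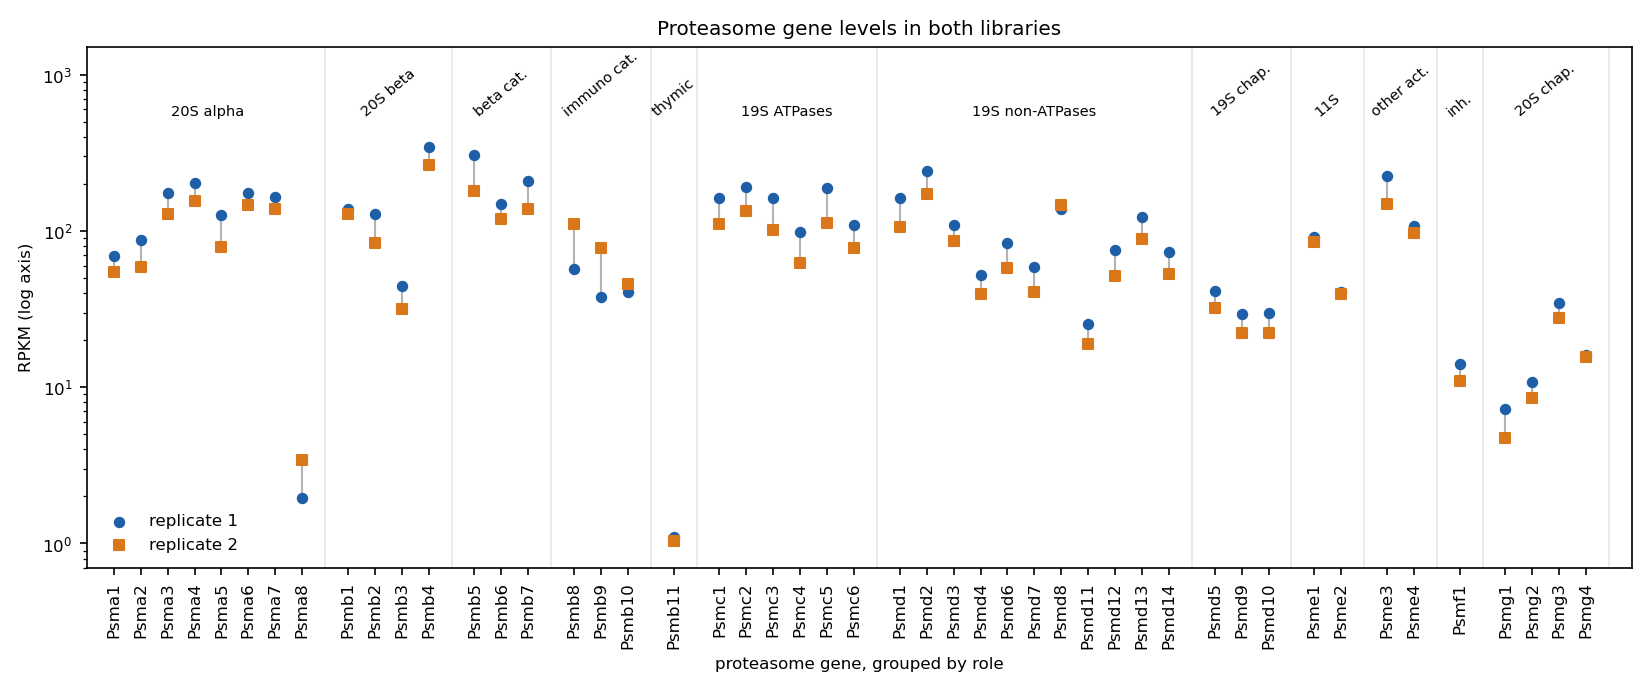
RPKM on a log axis of the 48 proteasome genes in replicate 1 (circles) and replicate 2 (squares), grouped by role, with a grey line joining the libraries. Psmb8 and Psmb9 stand out as higher in replicate 2, whereas most 20S and 19S subunits are lower there, and Psma8 and Psmb11 are the lowest in both libraries.

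The alpha subunits form the outer rings of the core and gate its entrance. Psma4 was the highest, with 202 RPKM in replicate 1 against 156 in replicate 2. Psma3 stood at 175 and 128 RPKM, and Psma6 at 176 and 147. Psma7 stood at 165 and 139 RPKM. The remaining 3 standard alpha genes were lower, with Psma1 the lowest of them as deposited at 69.1 and 54.3 RPKM. Psma2 stood at 87.2 and 58.9 RPKM, and Psma5 at 126 and 79.4. With the gene lengths considered below, Psma1 would stand at 110 and 86.6 RPKM, above Psma2 at 97.2 and 65.7. All 7 were lower in replicate 2.

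The beta rings sit inside the core. Psmb4, a structural subunit without a proteolytic site, was the highest proteasome gene of all at 344 and 265 RPKM. Psmb1 stood at 138 and 127 RPKM, and Psmb2 at 129 and 83.3. Psmb3 was the lowest standard subunit of the core at 44.6 and 31.7 RPKM. Among the catalytic subunits, Psmb5, the chymotrypsin-like site and main target of proteasome inhibitors, stood at 306 RPKM in replicate 1 against 181 in replicate 2. Psmb7, the trypsin-like site, stood at 208 and 138 RPKM. Psmb6, the caspase-like site, stood at 149 and 120 RPKM. Every one of these 7 beta genes was lower in replicate 2.

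The 6 ATPases of the 19S base were expressed evenly, within 1.93-fold of each other in replicate 1 and 2.14-fold in replicate 2. Psmc2 was the highest at 189 and 133 RPKM, followed by Psmc5 at 187 and 113. Psmc3 stood at 162 and 101 RPKM, and Psmc1 at 161 and 111. Psmc6, at 108 and 77.9 RPKM, and Psmc4, at 98.1 and 62.3, were the lowest. The 11 other 19S subunits were more spread, over 9.61-fold and 9.12-fold. Psmd2 and Psmd1, the large scaffold subunits, stood at 242 and 172 RPKM and at 163 and 106 RPKM. Psmd4, a ubiquitin receptor, stood at 51.8 and 39.2 RPKM, and Psmd14, the deubiquitinase of the lid, at 73.4 and 52.9. Psmd8 stood at 139 RPKM in replicate 1 against 147 in replicate 2, and was the only standard subunit that was not lower in replicate 2. Psmd11, at 25.2 and 18.9 RPKM, was the lowest of all standard subunits. The others ranged from 58.4 (Psmd7) to 122 RPKM (Psmd13) in replicate 1 and from 40.6 to 88.5 RPKM in replicate 2, with Psmd12, Psmd6 and Psmd3 between them. The median 19S subunit lay below the median standard 20S subunit (-0.55 ± 0.03 as a log2(RPKM + 1) difference, SD, n = 2), more than 2 SD from 0. This SD is between libraries and leaves out the spread among genes. In replicate 1 the SD of log2(RPKM + 1) among genes was 0.81 for 19S and 0.78 for 20S subunits. Both exceed the difference, and the levels of the 2 classes overlapped.

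Genes for assembly factors had lower median levels than the standard subunits, 29.9 and 22.2 RPKM for the 19S chaperones and 13.4 and 12.1 RPKM for the 20S chaperones. The 3 chaperones of the 19S base stood at 41 and 31.9 RPKM (Psmd5), 29.9 and 22.1 (Psmd10) and 29.4 and 22.2 (Psmd9). Of the 4 chaperones of the 20S core, Psmg3 was the highest at 34.6 and 27.7 RPKM. Psmg4 stood at 16 and 15.6 RPKM, Psmg2 at 10.8 and 8.56, and Psmg1 at 7.22 and 4.72. Psmf1, which encodes an inhibitor of the core, stood at 14.1 and 11 RPKM.

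Of the activators, Psme3, which encodes a nuclear activator related to the 11S subunits, stood at 226 RPKM in replicate 1 against 149 in replicate 2, and Psme4, the large single-chain activator, at 107 and 96.3. Psme1 and Psme2 stood at 90.8 and 85.2 RPKM and at 40.7 and 39.4 RPKM. The median of the pair lay below that of Psme3 and Psme4 (-1.19 ± 0.22 as a log2(RPKM + 1) difference, SD, n = 2), beyond 2 SD. The difference shrank to -0.48 ± 0.22 with the gene lengths considered next, at which Psme2 would exceed Psme4 in both libraries. Lengths were restated only where the smallest fitting length exceeded the transcript. Psme4 was therefore left as deposited, and its order with Psme2 is uncertain.

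Psma8 and Psmb11 are tissue-restricted forms, of testis and of thymic epithelium. They stood at 1.94 and 3.41 RPKM (at least 58 and 98 reads) and at 1.10 and 1.04 RPKM (at least 34 and 31 reads), the lowest of the 48 genes. Psma8 was 1.76-fold higher in replicate 2 (95% exact binomial interval 1.26 to 2.47, counting error only).

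Read numbers were recovered for all 48 genes as the smallest whole numbers that fit both libraries at a whole gene length. For 13 genes the smallest fitting length exceeded the longest GENCODE vM21 transcript, so that their RPKM may be low for the length of their mRNA. Psmb3 needed 4247 bp against a longest transcript of 1509 bp, Psme2 2591 bp against 962 bp, Psmg1 3221 bp against 1044 bp and Psmg2 3542 bp against 1300 bp. Restated at the transcript length, Psmb3 would stand at 126 and 89.3 RPKM, close to Psmb1 and Psmb2. Psme2 would stand at 110 and 106 RPKM beside Psme1 at 90.8 and 85.2. The 20S chaperone genes Psmg1, at 22.3 and 14.6 RPKM, and Psmg2, at 29.4 and 23.3, would come closer to the 19S chaperones. How far the median of the 20S chaperones lies below that of the 19S chaperones therefore depends on these lengths. The other 9, among them Psma1, Psmd4 and Psmb10, were longer than their transcripts by 1.05 to 1.60 times. A comparison of the libraries within a gene does not depend on the length, since it cancels.

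Between the libraries, the standard proteasome genes were lower in replicate 2 almost without exception. Of the 31 standard subunits, 30 were lower, where 60.9% of all 8151 genes with a mean of 5 RPKM or more were. Log2 ratios (replicate 2 over 1, after adding 1 RPKM to each) had a median of -0.48 for the 31 subunits and -0.09 for all genes. The SD of the ratios was 0.18 among the subunits and 0.53 among all genes, so the ratios of the subunits were the less spread. After the median of all genes was subtracted, 30 of 31 were still lower. Each side of this difference is 1 library, so it has no replicate check. In bulk RNA, fewer cells of a type and less RNA per cell cannot be told apart.

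**Figure D2:**
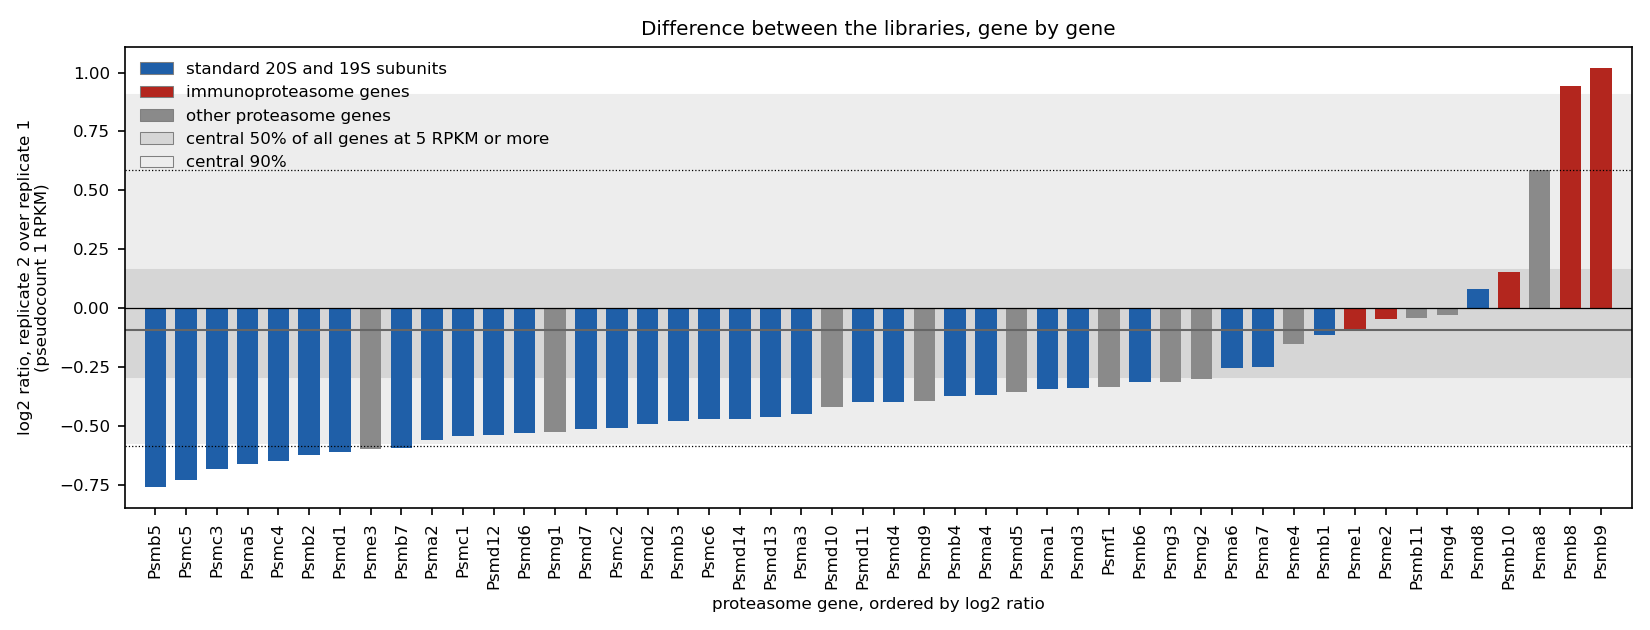
Bars give the log2 ratio of replicate 2 over replicate 1 (pseudocount 1 RPKM) for each of the 48 genes in order, coloured by class. Grey bands hold the central 50% and 90% of all genes with a mean of 5 RPKM or more, the grey line is their median and dotted lines mark 1.5-fold. All standard subunits but Psmd8 lie on the left side, and Psmb8 and Psmb9 at the far right. Psme1, Psme2, Psmb11 and Psmg4 turn slightly positive once the median of all genes is subtracted.

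On the same log2(RPKM + 1) scale, 9 of the 46 proteasome genes with a mean of 5 RPKM or more were at least 1.5-fold lower in replicate 2, against a background of 4.36% of all genes. They were Psmb5, Psmb7, Psmb2, Psma5, Psmc3, Psmc4, Psmc5, Psmd1 and the activator gene Psme3. Only Psmb8 and Psmb9 were 1.5-fold higher, a share of members below the 8.78% of all genes. Centred on the median of all genes, 3 were lower, namely Psmb5, Psmc5 and Psmc3, against 2.36%, and 2 higher, against 10.7%. At a log2 ratio of 0.32 or more in size, 32 of the 46 were lower, against 21.8%, and 2 higher, against 16.2%. None was 2-fold lower, against 0.515%, and 1, Psmb9, was 2-fold higher, against 4.22%. Among the genes that were lower, the ratio of Psmb5 was farthest from 1, at 1.69-fold lower in replicate 2 (interval 1.63 to 1.76, from at least 6691 and 3801 reads). Psmc5 followed at 1.66-fold (1.59 to 1.74) and Psmc3 at 1.61-fold (1.55 to 1.67).

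Some members had ratios close to 1. Psmd8 was 1.06-fold higher in replicate 2 (interval 1.02 to 1.10), Psmb1 1.08-fold lower (1.04 to 1.12) and Psme4 1.11-fold lower (1.04 to 1.19). For the chaperone gene Psmg4 the interval, 0.818 to 1.28 for replicate 1 over replicate 2, held 1. The inhibitor gene Psmf1, at 1.28-fold, and the 19S chaperone genes, at 1.29-fold to 1.35-fold, were lower in replicate 2 like the subunits.

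The immunoproteasome genes did not follow the standard subunits. Psmb8, the counterpart of Psmb5, stood at 56.8 RPKM in replicate 1 against 110 in replicate 2, 1.94-fold higher (interval 1.83 to 2.05). Psmb9, the counterpart of Psmb6, stood at 37.9 and 78 RPKM, 2.05-fold higher (1.81 to 2.34). Only 4.67% and 4.10% of all genes had a larger ratio than these. Psmb10, the counterpart of Psmb7, was nearly level at 40.8 and 45.5 RPKM, 1.11-fold higher (1.05 to 1.18). Psme1 and Psme2 were also close to level, at 1.07-fold (1.02 to 1.11) and 1.03-fold (0.983 to 1.09) lower in replicate 2, a direction that turns when the median of all genes is subtracted. The 5 genes had a median log2 ratio of 0.15, which was 0.24 after centring on all genes, and a mean of 0.40. Without Psmb8 and Psmb9, an omission chosen after seeing the data, the median was -0.05.

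Within each exchanged pair the constitutive gene was the higher one in both libraries. Psmb5 exceeded Psmb8 5.38-fold in replicate 1 and 1.64-fold in replicate 2. Psmb6 exceeded Psmb9 3.93-fold and 1.54-fold, and Psmb7 exceeded Psmb10 5.10-fold and 3.03-fold. As a share of the RPKM of the pair, Psmb8 made up 15.7% in replicate 1 and 37.9% in replicate 2. Psmb9 made up 20.3% and 39.4%, and Psmb10 16.4% and 24.8%. Psmb10 is among the 13 genes whose fitted length exceeded the transcript. Restated at the transcript length it would stand at 52.7 and 58.8 RPKM, so its share would be larger and the excess of Psmb7 smaller. Over the 3 pairs together the immunoproteasome share was 17% and 34.8%, or 25.9% ± 12.6 (SD, n = 2). The mean difference over the pairs of log2(RPKM + 1) was -1.60 ± 0.89 (SD, n = 2), -2.22 in replicate 1 and -0.97 in replicate 2. It had the same sign in both libraries but lay within 2 SD of 0. These are shares of RNA, and the make-up of the assembled particles was not measured.

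**Figure D3:**
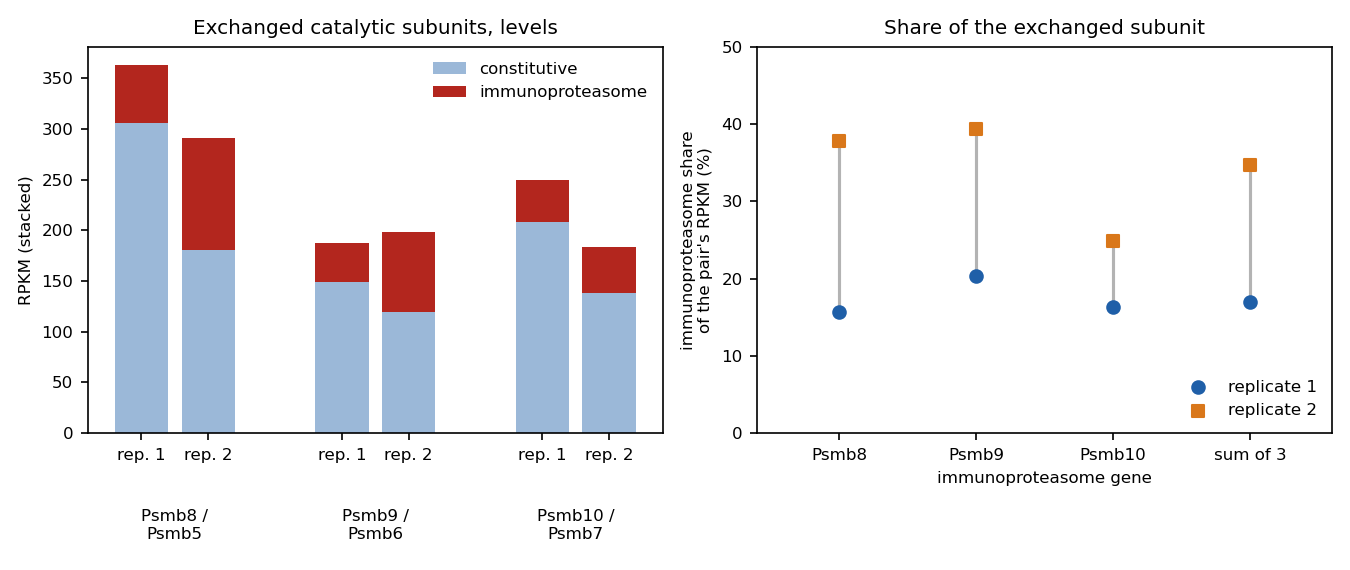
Left, stacked RPKM of each constitutive catalytic subunit (light) and its immunoproteasome counterpart (dark) in both libraries. Right, the immunoproteasome share of the pair's RPKM in percent, with circles for replicate 1 and squares for replicate 2. The share is higher in replicate 2 in all 3 pairs, and least so for Psmb10.

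Psmb8 and Psmb9 lie in the MHC locus of chromosome 17, where the RefSeq order of genes is Psmb9, Tap1, Psmb8 and Tap2. All 4 neighbours were higher in replicate 2, a count that includes Psmb8 and Psmb9 themselves. Of all genes with a mean of 5 RPKM or more, 60.9% were lower. Tap1 stood at 5.23 and 12 RPKM, a log2 ratio of 1.06 beside 1.02 for Psmb9 across the promoter they share. Tap2, the other subunit of the transporter, stood at 22.5 and 36.1 RPKM, a log2 ratio of 0.66 beside 0.94 for Psmb8. GENCODE places exons of Psmb9 and Tap1 on overlapping bases of opposite strands. The counting's strand setting is not given, so reads there cannot be told apart. In all, 13 of the 48 genes overlap exons of another annotated gene, among them Psmb7 with Nek6 and Psmc3 with Slc39a13. Psmb10 lies on chromosome 8, and Psme1 and Psme2 lie on chromosome 14.

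Genes of class I presentation were split, with 6 of 11 higher in replicate 2 and 5 lower, all of them detected. Among all genes with a mean of 5 RPKM or more, 60.9% were lower. Of the 11, 4 were past 1.5-fold, each higher in replicate 2, where 8.78% of all genes were. These were Tap1, Tap2, B2m (the light chain of class I molecules) at 358 and 554 RPKM, and H2-K1 (a class I heavy chain) at 127 and 196. Calr and Pdia3, chaperones of class I folding with many other clients, stood at 881 and 692 RPKM and at 449 and 385. The list's median log2 ratio was 0.35.

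The regulators of these genes were split in direction, where 60.9% of all genes with a mean of 5 RPKM or more were lower in replicate 2. Of 13 genes for interferon gamma, interferon receptors and transcription factors of the interferon and NF-kB pathways, 5 were lower, 7 higher and Ifng, which encodes interferon gamma, was listed at 0 in both libraries. Irf1 stood at 12 and 10.2 RPKM. Nlrc5, the activator of class I genes, stood at 2.14 and 3.06 RPKM. Irf8, a factor of monocytes and dendritic cells, was the only one past 1.5-fold, at 7.91 and 29.6 RPKM, a log2 ratio of 1.78. Of all genes with a mean of 5 RPKM or more, 8.78% were past 1.5-fold higher. The receptor genes Ifngr1 and Ifnar1 stood at 161 and 172 RPKM and at 101 and 131. Of 20 interferon-induced genes, 8 were detected, led by Irgm1 at 14.8 and 10 RPKM and Oas1a at 5.37 and 5.53, and just 2 of the 20 had a mean of 5 RPKM or more, 1 lower and 1 higher in replicate 2. The list's median levels were 0.728 and 2.38 RPKM. At any level, 16 of the 20 were higher in replicate 2 and 4 lower, with a median log2 ratio of 0.14. Most of the 20 were below the detection level in at least 1 library. The share of all genes higher at such low levels was not computed.

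Markers of monocytes, macrophages, antigen-presenting cells and mast cells moved in the same direction as Psmb8 and Psmb9. Among all genes with a mean of 5 RPKM or more, 60.9% were lower in replicate 2. All 8 monocyte and macrophage genes found were higher in replicate 2, with summed levels of 707 and 3066 RPKM. All 7 genes of antigen-presenting cells were higher, with sums of 166 and 1199 RPKM, and 5 of them were detected in both libraries. All 5 mast cell genes were higher, with sums of 9.41 and 762 RPKM, and 2 of them were detected in both libraries. None of the genes in these 3 lists was at 0 in either library. The 9 progenitor genes summed to 5032 RPKM in replicate 1 and 3932 in replicate 2. Of these 9, 6 were lower in replicate 2 and 3 higher, near the 60.9% lower among all genes with a mean of 5 RPKM or more. Their sum was led by Mpo at 1587 and 1164 RPKM, Elane at 1327 and 1087, and Prtn3 at 1135 and 935. The part of such cells in the levels of the proteasome genes was not tested.

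**Figure D4:**
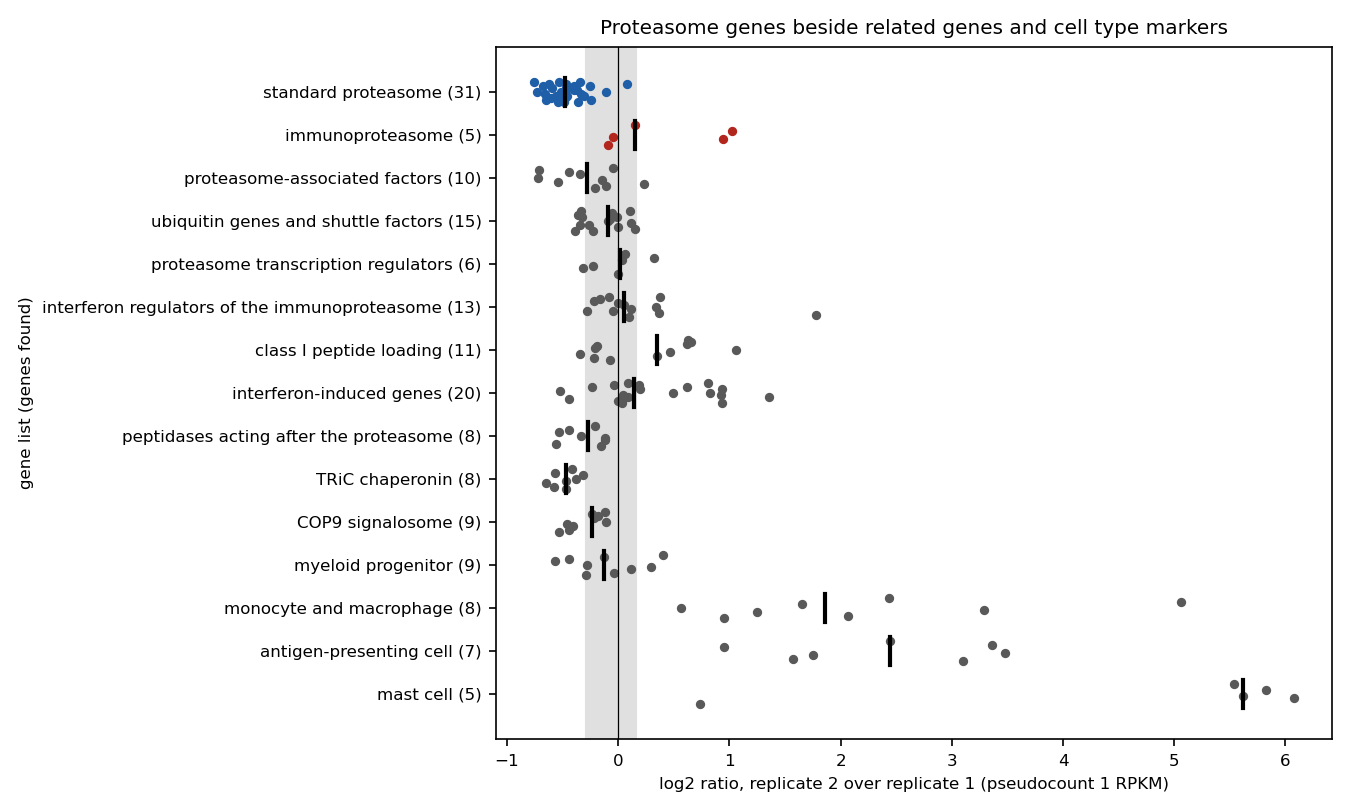
Each point is the log2 ratio of replicate 2 over replicate 1 (pseudocount 1 RPKM) of a gene, the black bar the median of its list, and the grey band the central 50% of all genes with a mean of 5 RPKM or more. Standard proteasome genes lie to the left of 0 with the exception of Psmd8, and the lists of monocyte, antigen-presenting and mast cell markers lie to the right.

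Of 10 proteasome-associated factors found, all were detected and 9 were lower in replicate 2. Among those with a mean of 5 RPKM or more, 8 of 9 were lower, where 60.9% of all such genes were. The deubiquitinase genes Uchl5, at 138 and 83 RPKM, and Usp14, at 38.6 and 23.2, were past 1.5-fold lower, as were 4.36% of all such genes. Pomp, the maturation factor of the core, stood at 73.6 and 63.4 RPKM, and Shfm1, a small lid subunit, at 70.2 and 63.5. Of the ubiquitin genes, Rps27a stood at 3024 and 3279 RPKM and Ubb at 142 and 136. Nfe2l1, the factor that raises proteasome genes when the protease is inhibited, stood at 29 and 30.3 RPKM, and Nfe2l2 at 125 and 99.8. Of the 15 ubiquitin and shuttle genes, 12 were lower and 3 higher. Among the 14 of them with a mean of 5 RPKM or more, 12 were lower, against the same 60.9%. Of the 6 transcription regulators, all at that level, 2 were lower and 4 higher, with a median log2 ratio of 0.02. None of these 2 lists' genes was past 1.5-fold in either direction. Of all genes with a mean of 5 RPKM or more, 4.36% were past it lower and 8.78% higher.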

How the data were processed

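RPKM values are those the authors deposited, in a single table whose columns were matched to the samples by name. The submitters' processing notes name Trimmomatic 0.32, TopHat2, HTSeq, edgeR and build mm9. Their settings, annotation, strand handling and gene lengths are not given. A wrong length would shift a gene's RPKM alike in both libraries. Of 24015 rows, 27 with names turned into dates were left out. The genes and lists were chosen with earlier results of these data known. Differences used log2(RPKM + 1), which understates low genes. A difference within libraries was called when both had 1 sign and the mean exceeded 2 SD. Fold counts used genes with a mean of 5 RPKM or more. Library sizes came from 474 genes with equal reads (tolerance 1e-05) and 63 of 1406 single-transcript genes with low values (tolerance 1e-06). Intervals are exact 95% binomial intervals of recovered reads, cover counting error only, and no molecular identifiers are named in the labels. Copies were searched with blastn 2.17.0 in GENCODE vM21 transcripts (95% identity over 80% of the shorter). Steps were tested on simulated data, with Python 3.11.15, pandas 2.3.3 and scipy 1.17.1. Any member could be named and, of each other list, the 3 highest detected genes, those not detected or past 1.5-fold, and Irf1, Nlrc5, Nfe2l1, Pomp, Tap1, B2m and H2-K1. Some genes of these lists are not reported here. Nek6 and Slc39a13 are named as overlaps, outside that rule. Alternatives were pseudocount, scaling, centring, filters, fold, summary and leaving out a library.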

Additional observations from a re-analysis of the deposited data

How the results depend on the processing

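Every contrast within libraries kept its direction and its side of 2 SD with a pseudocount of 0.1, rescaled sums, means or medians, and gene lengths restated. Left out in turn, either library gave -2.22 to -0.97 for the immunoproteasome against its constitutive partners, -1.34 to -1.03 for the activators, -0.57 to -0.53 for 19S against 20S, and 48 detected genes each. The count of 11 genes past 1.5-fold (9 lower, 2 higher) became 5 (3 lower) after centring on the median of all genes, and likewise 5 (3 lower) once trends with GC content and length were taken out, an alternative added after seeing the data, as were restated lengths and the omission of copies or of Psmb8 and Psmb9. It was 34 (32 lower) at a log2 ratio of 0.32, and 1 at 2-fold (0 lower and 1 higher, Psmb9). The median log2 ratio of the standard subunits ranged from -0.49 to -0.35 over all alternatives. It was -0.47 over the 20 of them with no near-identical copy or overlapping gene in GENCODE, 19 of which were lower in replicate 2. Over the single genes and their alternatives, 175 ratios kept their side of 1.5-fold, 12 fell short of it, 3 passed it and no called ratio changed sign. No paired analysis was possible because there is 1 group. The recovered read numbers are minima, and for Psmb11 and Psma8 they limit precision most.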

Other observations

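2 other large complexes of housekeeping proteins were set beside the proteasome. The 8 genes of the TRiC chaperonin, which folds actin and tubulin, had medians of 164 and 111 RPKM, and all 8 were lower in replicate 2, as were 60.9% of all genes with a mean of 5 RPKM or more, with a median log2 ratio of -0.47 beside -0.48 for the standard proteasome. Cct3 was the only one of them past 1.5-fold lower, where 4.36% of all genes with a mean of 5 RPKM or more were. The 9 genes of the COP9 signalosome, a relative of the 19S lid that removes NEDD8 from cullins, had medians of 36.3 and 33.5 RPKM, and all 9 were lower, with a median of -0.23. TRiC genes lay within 2.04-fold of each other in replicate 1, about as even as the 6 proteasomal ATPases at 1.93-fold, while COP9 genes spread over 7.44-fold.

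Peptidases that trim or destroy the products of the proteasome were also lower in replicate 2, all 8 of those found. Their median log2 ratio was -0.28. On the log2(RPKM + 1) scale none was past 1.5-fold lower, where 4.36% of all genes at 5 RPKM or more were. Without the added 1 RPKM, the largest fold among them was 1.51. Of all genes with a mean of 5 RPKM or more, 60.9% were lower. Npepps stood at 205 and 184 RPKM, Prep at 124 and 90.8, and Lap3, which interferon gamma can induce, at 87.9 and 60.3. Lap3 was lower like the rest of its list, and the part of interferon in these levels was not tested.

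Near-identical annotated copies were found for 7 of the 48 genes: Psma3, Psma4, Psma5, Psmb5, Psmc1, Psmd2 and Psme2. Psme2b, the copy of Psme2 and the only one of the copies in the table, was listed at 0.479 and 0.604 RPKM. Reads that fit both a gene and its copy may have been lost in counting, so levels of these 7 are uncertain.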
